A study of Mus musculus with 20 samples.

Results

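Genes of calcium handling and of the ion channels of heart muscle were followed in the left ventricle of mice given doxorubicin (DOXO), an anthracycline that damages the heart, with or without folic acid (FA). The set was a list of 37 genes, and a gene was taken up when a transcript cluster of the array, which is the summary of the probes over its exons, carried that gene's symbol and no other. Where a gene had several such clusters, the one with the highest mean signal was used. In all, 36 of the 37 genes were found among 34760 clusters, and for Itpr1, an IP3 receptor, no cluster carried its symbol alone. The array was the Affymetrix Mouse Gene 1.0 ST, with 1 array per mouse. All 20 mice were male C57BL/6 mice aged 2 months. The 4 sham mice received saline and the placebo diet, and the 4 FA-sham mice saline and FA at 10 mg/day. The 6 DOXO mice received 1 intraperitoneal dose of 20 mg/kg DOXO and the placebo diet, and the 6 FA-DOXO mice the same dose with FA. FA was given from 7 days before the injection to the end of the experiment at 10 days. Values are log2 signals, so 1 unit is a doubling, and they were compared for the same cluster only, because probes differ in brightness.

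Each heartbeat starts when the action potential opens calcium channels of the cell membrane. The calcium that enters opens the ryanodine receptor of the sarcoplasmic reticulum (SR), the internal store, and the larger release from the store starts contraction. Relaxation follows when the SR pump returns calcium to the store and the sodium-calcium exchanger moves the rest out of the cell, while potassium channels bring the membrane back to rest. Doxorubicin is known to disturb this calcium cycle in cardiomyocytes.

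Before the members are described, a feature of the arrays has to be given, because it moved with most of them. The SD of the log2 signals over all 34760 clusters of an array, here called the array SD, ran from 0.863 to 1.501. Arrays with an array SD above 1.1 are called wide and the others narrow. Of the wide arrays, 3 were of sham, 1 of FA-sham, 2 of DOXO and 2 of FA-DOXO mice, so the only narrow sham array was replicate 4 and the only wide FA-sham array was replicate 4. Mean array SD was 1.27 in sham and 0.957 in FA-sham mice, and 1.13 and 1.04 in the groups given DOXO without and with FA (permutation test of the spread of these means, p = 0.24), and the array medians lay between 6.23 and 6.66. Markers of the labelled tissue were present, since 18 of 18 cardiomyocyte markers lay above the array medians in their mean over all arrays. What set the array SD was not tested. Groups were compared with limma over all clusters, with the array SD as a covariate, and the same comparison without the covariate is given beside it. A cluster is said to be called at an unadjusted p under 0.01, the threshold named in the study's methods, and calls after Benjamini-Hochberg adjustment over all clusters at 0.05 are given separately. Whether mice shared a litter or a day is not given, so p-values measure the spread between these animals.

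The starts of the genes on which the results turn are shown first. Of the 36 members, 28 had a promoter in the RefSeq table (GRCm38.p6), with 250 bases before and 50 bases after the start. The sequences of Pln and Casq2 are shown because their signals followed the array SD closely, and those of Kcnj3 and Cacnb2 because these were the members called between DOXO and sham mice. Capitals mark matches on either strand. The letters searched were TATAAA for the TATA box, AGATAA for GATA factors, CATTCC for TEAD factors and TAAAAATA for MEF2 factors, and matches of different motifs can overlap. All 4 are on the + strand, at chr10:53337436-53337735 (Pln), chr3:102086165-102086464 (Casq2), chr2:55435720-55436019 (Kcnj3) and chr2:14604056-14604355 (the first listed start of Cacnb2).
Pln: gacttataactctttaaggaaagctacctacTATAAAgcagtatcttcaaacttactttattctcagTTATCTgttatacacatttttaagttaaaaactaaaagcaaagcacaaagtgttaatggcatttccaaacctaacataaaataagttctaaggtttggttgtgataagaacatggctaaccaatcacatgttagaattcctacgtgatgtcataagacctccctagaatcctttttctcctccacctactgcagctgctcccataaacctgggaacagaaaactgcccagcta
Casq2: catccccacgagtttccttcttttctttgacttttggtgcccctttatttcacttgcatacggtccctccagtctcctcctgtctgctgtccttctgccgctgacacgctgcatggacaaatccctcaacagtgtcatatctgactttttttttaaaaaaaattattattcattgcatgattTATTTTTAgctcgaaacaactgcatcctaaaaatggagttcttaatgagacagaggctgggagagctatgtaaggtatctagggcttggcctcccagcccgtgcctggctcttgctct
Kcnj3: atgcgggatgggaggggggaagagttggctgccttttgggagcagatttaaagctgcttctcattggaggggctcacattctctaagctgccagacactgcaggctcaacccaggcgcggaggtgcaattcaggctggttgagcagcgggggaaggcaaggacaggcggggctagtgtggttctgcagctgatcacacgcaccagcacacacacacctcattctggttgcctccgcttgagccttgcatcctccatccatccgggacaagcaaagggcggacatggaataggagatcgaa
Cacnb2: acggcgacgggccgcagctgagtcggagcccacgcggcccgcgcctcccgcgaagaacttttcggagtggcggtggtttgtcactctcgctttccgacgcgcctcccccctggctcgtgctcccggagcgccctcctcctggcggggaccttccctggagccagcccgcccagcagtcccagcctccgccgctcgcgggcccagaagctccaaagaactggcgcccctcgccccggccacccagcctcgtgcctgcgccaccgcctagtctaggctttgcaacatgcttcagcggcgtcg
Among the 28 members, TATAAA was found in 3 (10.7%, against 15.7% of the 27025 genes in the table), AGATAA in 2 (7.14% against 12.7%) and CATTCC in 2 (7.14% against 16.6%). TAAAAATA was found in 3 members (10.7% against 3.09%), namely Casq2, Slc8a1 and Abcc9. These matches are a description of letters and not of bound sites. Position was not a condition of the search, and the TATAAA of Pln began at -219 from the start.

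Pump and release genes varied widely between mice of the same group, by an SD of up to 2.35 log2 units. Atp2a2 encodes the SR calcium pump (SERCA2), which refills the store. Its log2 signal was 11.05, 13.46, 13.15 and 8.37 in the sham mice and 7.90, 8.02, 7.81 and 11.51 in the FA-sham mice. In DOXO mice it ran from 8.65 over a median of 9.71 to 13.13, and in FA-DOXO mice from 8.40 over 9.46 to 12.55. The highest values were those of the wide arrays in every group, the low sham value was that of the narrow sham array, and all 4 groups overlapped. On wide arrays Atp2a2 lay between 11.05 and 13.46, and on narrow arrays between 7.81 and 10.72.

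Pln encodes phospholamban, the small protein that holds the pump back until it is phosphorylated. Its signal was 13.13, 13.91, 13.81 and 10.53 in sham and 8.89, 10.53, 8.94 and 13.04 in FA-sham mice. In DOXO mice it ran from 9.38 over 12.06 to 13.82 and in FA-DOXO mice from 9.32 over 11.37 to 13.44. The order of the mice was again that of wide over narrow arrays, without overlap between the wide arrays (13.04 to 13.91) and the narrow ones (8.89 to 12.48). S100a1, a calcium sensor that binds the pump and the release channel, ranged from 12.07 to 13.25 on wide and from 8.98 to 11.87 on narrow arrays.

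Ryr2 encodes the release channel itself. Its signal was 7.78, 10.91, 10.03 and 7.03 in sham and 6.98, 7.09, 7.18 and 7.81 in FA-sham mice. In DOXO mice it ran from 7.20 over 7.40 to 11.49, and in FA-DOXO mice from 7.13 over 7.34 to 9.49. Most mice lay close together near the low end, and the few high values came from wide arrays. Casq2, cardiac calsequestrin, the buffer that holds calcium inside the store, was at 10.65, 11.53, 11.29 and 7.09 in sham and at 6.53, 7.15, 6.52 and 10.26 in FA-sham mice. It ran from 6.47 over 8.45 to 10.84 in DOXO and from 6.36 over 7.77 to 10.43 in FA-DOXO mice. Sham replicate 4 and FA-sham replicate 4 exchanged places relative to their groups, as they did for Atp2a2 and Pln.

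Slc8a1, the sodium-calcium exchanger of the membrane, was at 7.60, 9.68, 9.08 and 6.74 in sham and at 6.84, 6.94, 6.88 and 7.57 in FA-sham mice. Its signal ran from 6.85 over 7.23 to 10.35 in DOXO and from 6.89 over 7.17 to 8.91 in FA-DOXO mice. Cacna1c, the pore of the L-type calcium channel, was at 6.57, 9.38, 8.37 and 6.60 in sham and at 6.60, 6.61, 6.59 and 6.72 in FA-sham mice. It ran from 6.47 over 6.62 to 10.49 in DOXO and from 6.52 over 6.61 to 8.01 in FA-DOXO mice. For Cacna1c most mice sat at one low level. The mice above it were all on wide arrays, namely 2 of the sham, 2 of the DOXO and 2 of the FA-DOXO mice, with DOXO replicate 5 the highest.

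**Figure D1:**
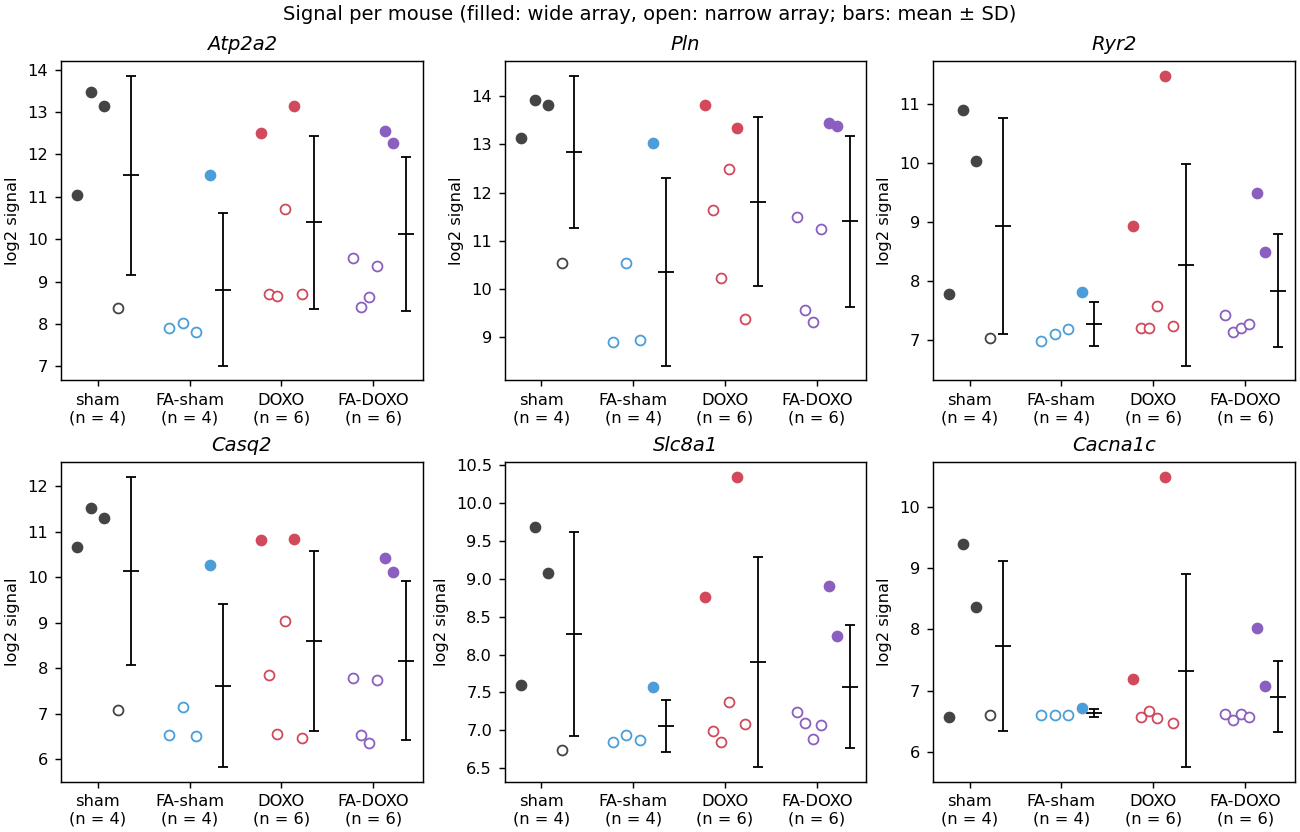
Log2 signal (vertical axis) of Atp2a2, Pln, Ryr2, Casq2, Slc8a1 and Cacna1c in each mouse of the 4 groups, with wide arrays as filled and narrow arrays as open points and bars for the group mean ± SD. The filled points lie above the open ones of their group, except for sham replicate 1 in Cacna1c (6.57), and the 4 groups overlap, for example Atp2a2 between 8.37 and 13.46 in sham and between 8.65 and 13.13 in DOXO mice.

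How far a member followed the array SD was expressed as a slope, the change of the log2 signal per unit of array SD within groups. The median slope of the 36 members was 3.26, against -0.53 over all 34760 clusters, and 28 members had a slope above 0. A slope above 3 was seen for 19 members (52.8%) and for 10% of all clusters. The members were brighter than most clusters, since 28 of the 36 had a mean signal above the median of all clusters. Their slopes were not compared with those of clusters of like signal, so the part of brightness in this contrast was not tested. The largest were those of Atp2a2 (8.77, SE 0.62), Casq2 (8.11, SE 0.72), Atp1b1, the beta subunit of the sodium pump (7.76, SE 0.40), Pln (7.09, SE 0.93) and Calr, the ER calcium buffer calreticulin (6.35, SE 0.47). Both calcium/calmodulin kinase II genes also followed the array SD, with a slope of 5.44 (SE 0.34) for Camk2d and 3.25 (SE 0.20) for Camk2g. The 36 members are part of the clusters over which the array SD is taken.

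The slopes differed both between and within families, and brightness differed along with them. In their mean over all arrays, Atp2a2 and Pln lay 3.70 and 5.08 above the array medians. Every member with a slope below 0 lay below the array medians or at most 0.098 above them, except Kcnd2 (0.95 above). The part of brightness in the differences between members was not tested. All 3 genes of the pump and its regulators, all 3 of the exchanger and sodium pump and both kinase genes had slopes above 3, both pacemaker channel genes lay below 0, and the release complex and the calcium and potassium channels were mixed. Of the release complex, Ryr2 (5.82), Trdn, the triadin that anchors calsequestrin (5.48), Asph, whose splice form junctin does the same (3.96), and Hrc, a calcium-binding protein of the store (3.33), had high slopes. Jph2, which holds the SR close to the membrane, had a slope of 1.29 (SE 0.45). Casq1, the calsequestrin of skeletal muscle (-0.31), and Fkbp1b, the calstabin bound to the ryanodine receptor (-0.999), had slopes below 0. Among calcium channels, the slope was 4.10 (SE 0.72) for Cacna1c and 3.27 (SE 0.22) for its alpha-2-delta subunit Cacna2d1, but -0.80 (SE 0.16) for its beta subunit Cacnb2. The T-type channel genes Cacna1g and Cacna1h, which open at more negative potentials, were at -0.77 and -0.55.

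Among potassium channels, the ATP-sensitive channel's regulatory subunit Abcc9 (4.07), the acetylcholine-gated subunits Kcnj5 (3.30) and Kcnj3 (2.96), and Kcnip2, the partner of the transient outward channel (3.90), had the high slopes. Kcnj2, the inward rectifier that sets the resting potential, was at 1.83 and Kcnj11, the pore of the ATP-sensitive channel, at 1.75. The pores of the transient outward current, Kcnd2 (-0.04, SE 0.25) and Kcnd3 (0.11, SE 0.23), did not move with the array SD beyond their error. Kcnq1 and Kcnh2, the channels of the slow and the rapid delayed rectifier, were at 1.05 and 1.09, and Kcna5, of the ultrarapid current, at 0.37. The pacemaker channel genes Hcn2 (-0.18) and Hcn4 (-0.46), the exchanger (4.78), the phospholemman gene Fxyd1 (4.83) and Itpr2, the IP3 receptor found here (0.52), complete the set. For comparison, the slope was above 3 for 18 of 18 cardiomyocyte markers (median 6.73) and for 8 of 13 endothelial markers (median 3.37). It was above 3 for 0 of 13 skeletal muscle markers (median -0.90), and the median was -0.89 for 34 other potassium channel genes. In pieces of tissue, fewer cells of a type, less RNA per cell and a narrower signal range of the whole array cannot be told apart here. The correlation between 2 arrays ran from 0.532 to 0.980, and the part of RNA or array quality in the slopes was not tested.

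**Figure D2:**
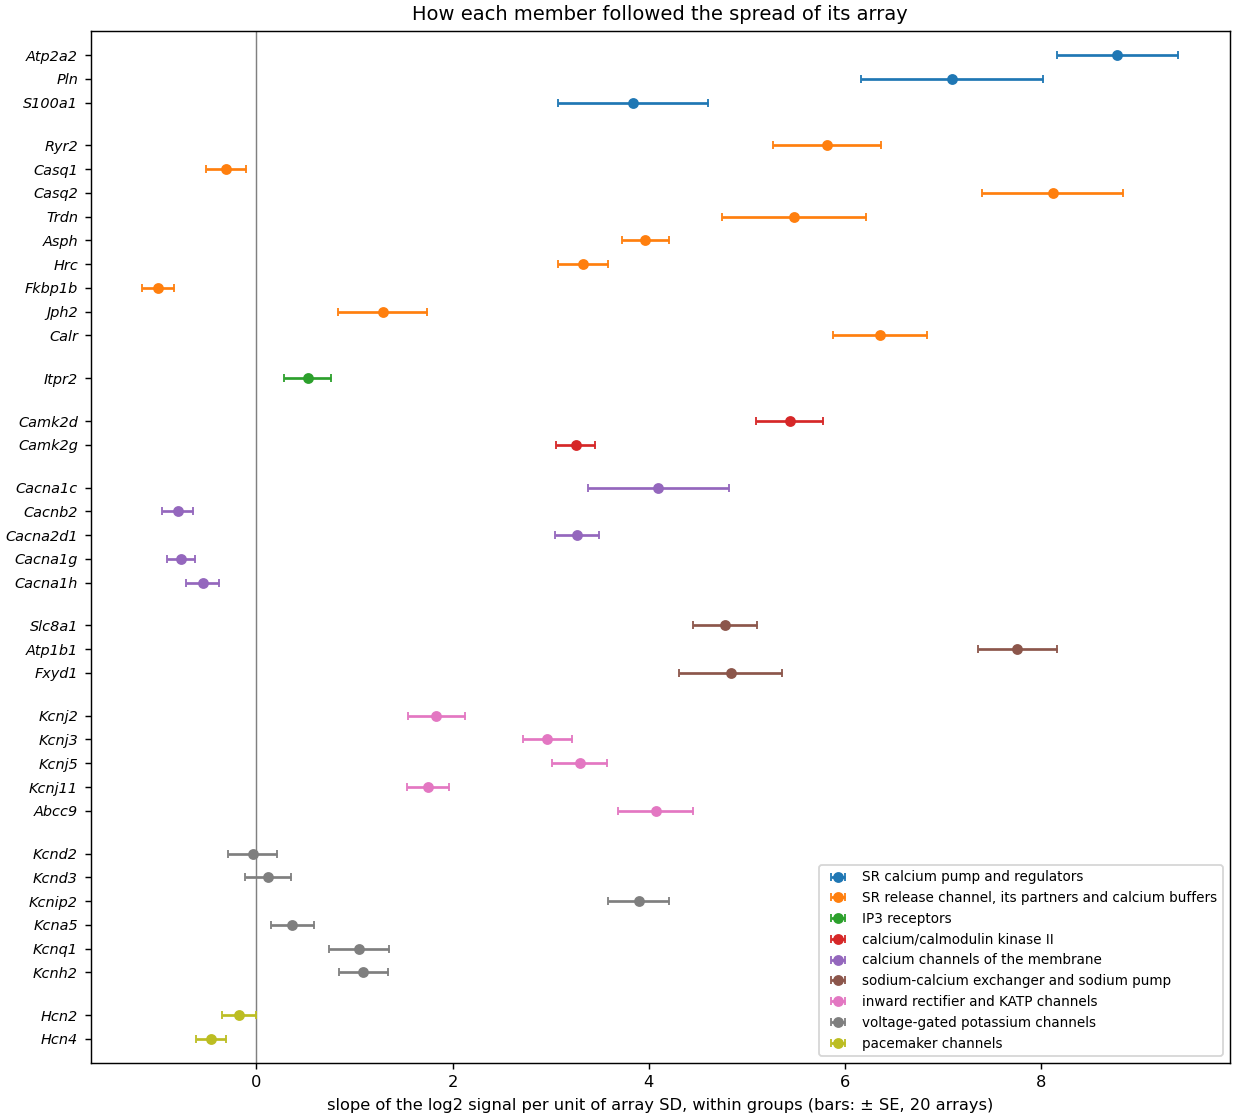
Slope of the log2 signal per unit of array SD within groups (horizontal axis) for each of the 36 members, coloured by role, with bars for ± SE over 20 arrays. Pump, release and exchanger genes reach slopes up to 8.77 (Atp2a2), while Cacnb2, the T-type channels, Kcnd2, Kcnd3 and the pacemaker channels lie between -0.80 and 0.11.

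The first comparison asked what DOXO did on the placebo diet. With the array SD as a covariate, 2 of the 36 members were called between DOXO and sham mice, where 4.14% of all clusters were called, a share near that of the members. Cacnb2 was higher and Kcnj3 lower in DOXO mice. After adjustment 0 members were called by limma, where 0.17% of all clusters were, and 6 members had an unadjusted p under 0.05, where 12.7% of all clusters did. Without the covariate 0 members were called, where 1.05% of all clusters were. The median difference of the members was -0.11 (all clusters 0.04) with the covariate and -0.54 (all clusters 0.10) without it, and 21 of 36 members were below 0 with it against 29 without it.

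Kcnj3 encodes GIRK1, a subunit of the potassium channel that acetylcholine opens and that is best known from the atrium and the pacemaker. Its signal was 7.46, 9.21, 8.67 and 6.83 in sham and 6.85, 6.89, 6.84 and 7.56 in FA-sham mice. In DOXO mice it ran from 6.68 over 6.92 to 8.06 and in FA-DOXO mice from 6.80 over 6.99 to 8.21. Sham replicates 2 and 3, both on wide arrays, stood above every other mouse, and the other sham mice lay within the range of the DOXO mice. The difference of DOXO minus sham was -0.43 (SE 0.14, a fold of 0.742, adjusted p = 0.226 from limma) with the covariate and -0.84 (SE 0.41, adjusted p = 0.647) without it. Among wide arrays alone it was -0.46, and among narrow arrays, with 1 sham mouse, -0.02. The call was lost when any of 10 of the 20 mice was left out. Without sham replicate 2 or DOXO replicate 5 the difference was -0.29, and without sham replicate 3, FA-sham replicate 1, 3 or 4, DOXO replicate 1 or 2, or FA-DOXO replicate 2 or 6 it lay between -0.43 and -0.38.

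Cacnb2 encodes the beta subunit that brings the L-type calcium channel to the membrane. Its signal was 5.42, 5.10, 5.55 and 5.77 in sham and 6.2, 5.91, 5.96 and 5.76 in FA-sham mice. In DOXO mice it ran from 5.58 over 5.81 to 6.16 and in FA-DOXO mice from 5.44 over 5.86 to 5.99. Sham replicates 1 to 3 lay below every DOXO mouse, sham replicate 4 lay within the DOXO range, and the wide arrays (5.10 to 5.76) lay just below the narrow ones (5.77 to 6.2). The difference of DOXO minus sham was 0.28 (SE 0.09, a fold of 1.22, adjusted p = 0.204 from limma), 0.40 without the covariate (adjusted p = 0.647), 0.31 among wide and 0.17 among narrow arrays. Its mean signal of 5.78 lay below the median of the arrays, where a dim cluster carries little information on its level. The call was lost without sham replicate 1 (0.25) or 2 (0.23) and without DOXO replicate 3 (0.26) or 5 (0.21).

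**Figure D3:**
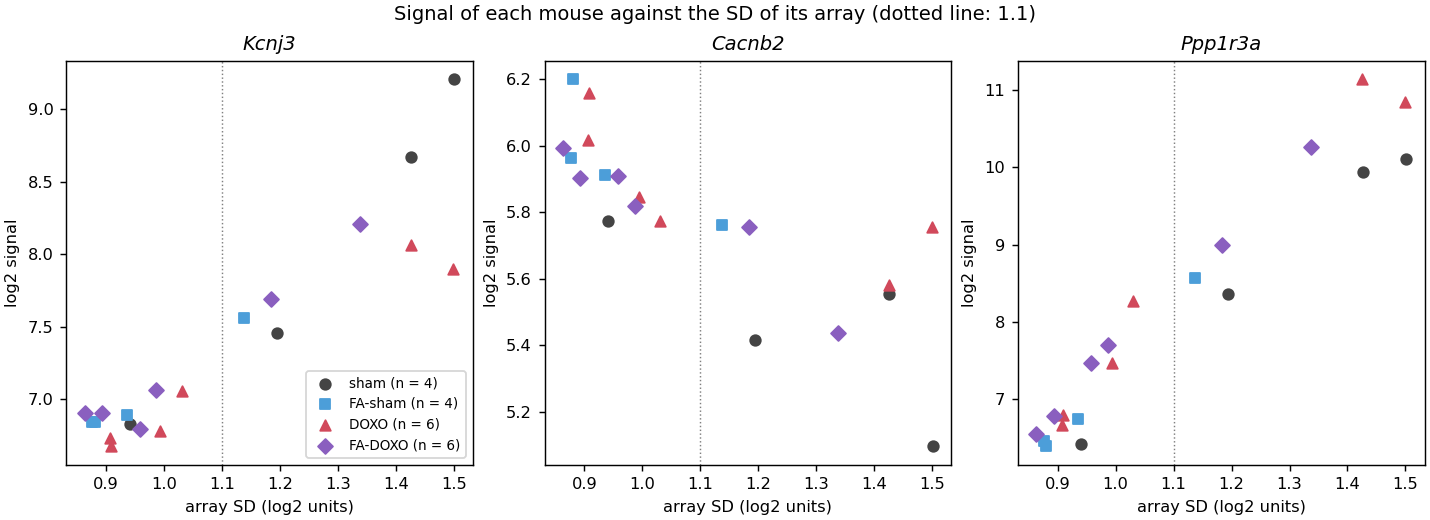
Log2 signal (vertical axis) of Kcnj3, Cacnb2 and Ppp1r3a in each mouse against its array SD (horizontal axis), by group, with a dotted line at 1.1 between narrow and wide arrays. Kcnj3 and Ppp1r3a climb with the array SD and Cacnb2 declines. In Kcnj3 the sham mice reach higher than the DOXO mice only among the wide arrays (9.21 against 8.06), while the narrow arrays lie close together.

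The other members between DOXO and sham mice were not called, and their values with the covariate follow by role. Of the pump and its regulators, the difference was 0.10 for Atp2a2 (95% interval -0.65 to 0.86), -0.05 for Pln (-1.18 to 1.08) and -0.22 for S100a1 (-1.15 to 0.71). For Pln the interval still holds more than a doubling and a fall to below 0.5 of the sham level. Without the covariate the same 3 genes were at -1.11, -1.03 and -0.75, each with an SE larger than or close to its size. Of the release complex, Trdn (-0.48), Casq2 (-0.42), Asph (-0.36), Hrc (-0.15), Casq1 (-0.15), Jph2 (-0.13) and Fkbp1b (-0.12) were below 0, and Ryr2 (0.14) and Calr (0.36) above it. Trdn has 19 clusters of its own, of which 14 were below and 5 above 0, from -0.49 to 0.28, and 0 were called. Among narrow arrays, Trdn, Casq2 and Asph lay on the other side of 0, at 0.32, 0.39 and 0.14.

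Of the exchanger and the sodium pump, Atp1b1 had the largest positive difference of all members, 0.48 (SE 0.23, adjusted p = 0.408), with 0.82 among wide and 0.87 among narrow arrays but -0.59 without the covariate. Slc8a1 was at 0.29 (SE 0.19) and Fxyd1 at 0.08 (SE 0.31). The second cluster of Slc8a1 was at -0.03. Of the inward rectifiers, Kcnj2 was at -0.36 (SE 0.17), Kcnj5 at -0.19, Abcc9 at -0.15 and Kcnj11 at 0.23. Of the voltage-gated channels, Kcnd2 was at -0.39 (SE 0.15, adjusted p = 0.274) and Kcnh2 at -0.31 (SE 0.14), and Kcnd3 (-0.18), Kcnip2 (-0.17), Kcna5 (0.16) and Kcnq1 (0.16) lay closer to 0. Kcnd2, whose slope on the array SD was near 0, gave nearly the same difference without the covariate (-0.38). Its signal was 7.33, 8.25, 7.88 and 7.41 in sham mice and ran from 7.12 over 7.34 to 7.60 in DOXO mice, so the difference came from the same sham mice, replicates 2 and 3, as in Kcnj3. Cacna1c (0.16), Cacna2d1 (-0.11), Cacna1g (0.04), Cacna1h (0.18), Camk2d (0.04), Camk2g (-0.10), Itpr2 (-0.13), Hcn2 (-0.03) and Hcn4 (0.09) complete the list.

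**Figure D4:**
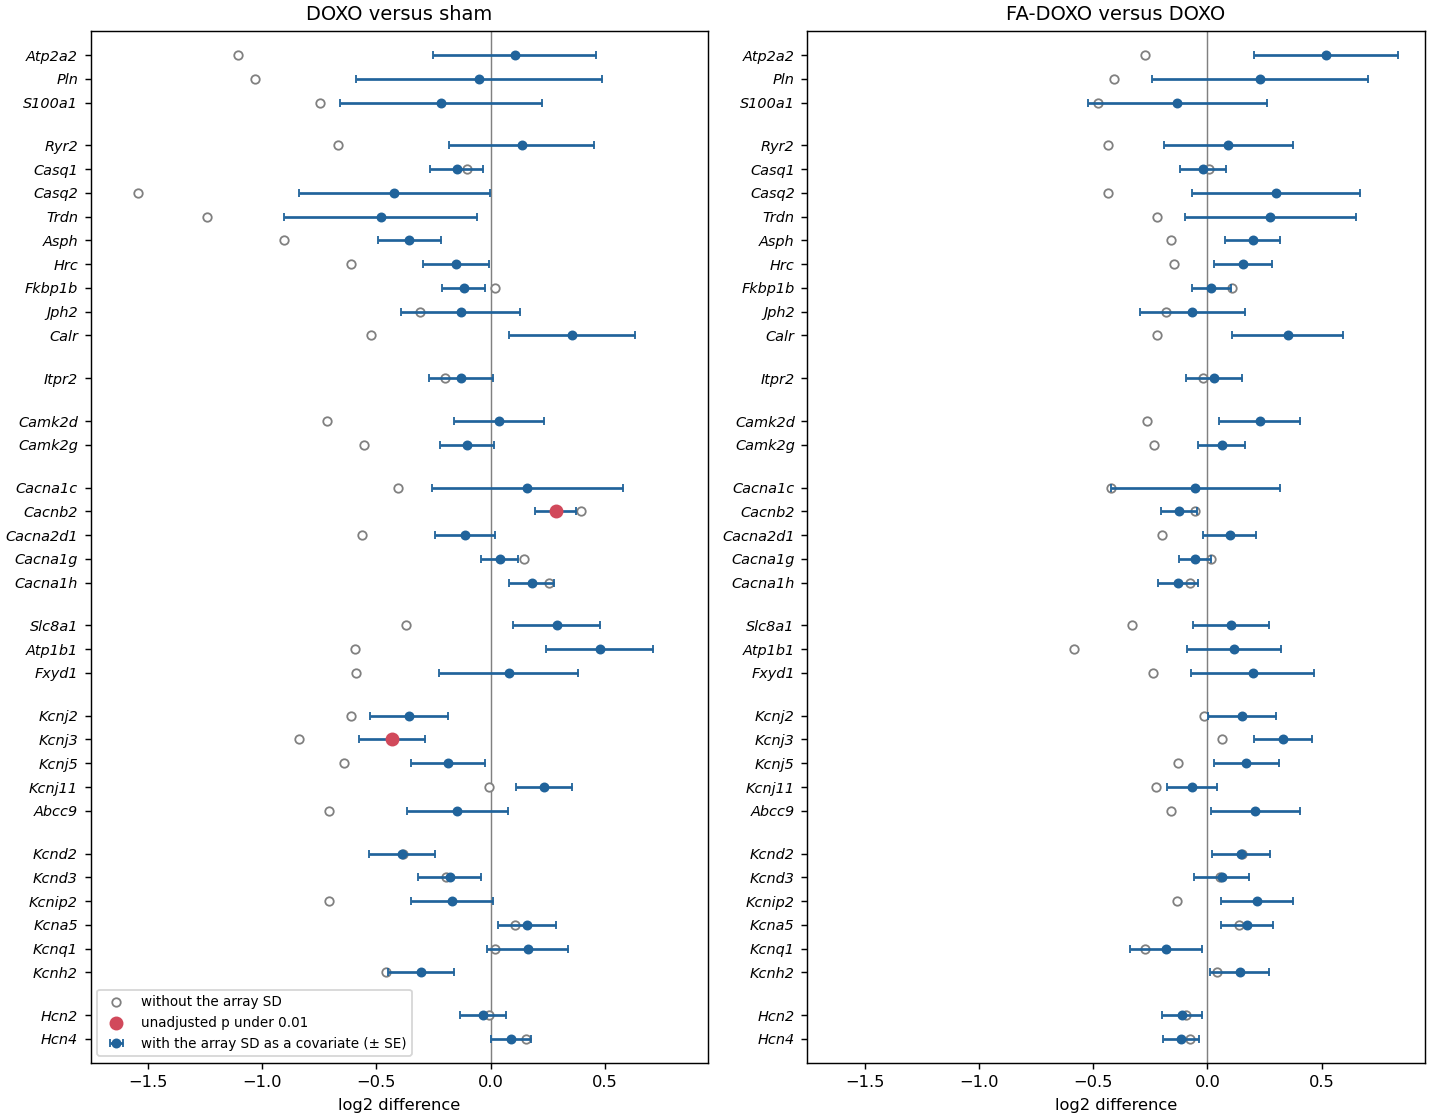
Log2 difference (horizontal axis) of DOXO minus sham (left) and FA-DOXO minus DOXO (right) for each of the 36 members, with the array SD as a covariate (filled, bars ± SE) and without it (open). On the left most open points lie far below 0 (down to -1.54 for Casq2) and the filled ones around it, and the 2 called members are Cacnb2 (0.28) and Kcnj3 (-0.43).

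The second comparison asked what FA added in mice given DOXO. With the covariate, 0 of 36 members were called between FA-DOXO and DOXO mice (1.11% of all clusters) and 0 after adjustment (0% of all clusters). By limma 1 member had an unadjusted p under 0.05, where 5.86% of all clusters did. Without the covariate 0 were called (0.158% of all clusters). The 3 members with the smallest p were Kcnj3, with a difference of 0.33 (SE 0.13, adjusted p = 0.839), Atp2a2 (0.52, SE 0.32) and Asph (0.20, SE 0.12). For Kcnj3 the difference was 0.06 without the covariate, -0.03 among wide and 0.11 among narrow arrays, and without sham replicate 2 it was called at 0.31. For Atp2a2 it was -0.28 without the covariate, -0.41 among wide and -0.21 among narrow arrays, so that its sign turned with the covariate. The median difference of the members was 0.11 (all clusters 0.01) with and -0.16 (all clusters 0.03) without the covariate, and 25 of 36 members lay above 0 with it against 8 without it. This comparison shares the DOXO mice with the first.

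FA in mice without DOXO gave 0 called members with the covariate (1.83% of all clusters, and 0 members and 0% of clusters after adjustment). Cacnb2 had the smallest p, with a difference of FA-sham minus sham of 0.25 (SE 0.11, adjusted p = 0.596 from limma), ahead of Kcnd2 (-0.29, SE 0.17) and Kcna5 (0.24, SE 0.15). The mean signals of Cacnb2 (5.78) and Kcna5 (6.45) lay below the median of the arrays. Without sham replicate 3 Cacnb2 was called, at 0.31. Without the covariate Cacnb2 alone was called (4.35% of all clusters), at 0.50 (SE 0.16, adjusted p = 0.156). The median difference of the members was 0.01 with the covariate and -0.95 without it (all clusters 0.07 and 0.19), which is the largest gap of the 7 comparisons and lies between the groups with the highest and the lowest mean array SD.

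DOXO in mice on FA gave 0 called members both with (1.07% of all clusters) and without (0.268%) the covariate. After adjustment 0 were called (0.0259% of all clusters). By limma 0 members had an unadjusted p under 0.05, where 4.92% of all clusters did. The smallest p were those of Atp2a2 (0.62, SE 0.35), Fxyd1 (0.52, SE 0.30) and Calr (0.40, SE 0.27). Without FA-sham replicate 4, the wide array of that group, Atp2a2 reached 1.05 and was called together with Atp1b1. Among the 19 Trdn clusters, 19 were above 0 here, from 0.01 to 0.98, and 2 were called, while the cluster used for Trdn was not.

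Whether FA changed the effect of DOXO was tested as an interaction, the DOXO difference on FA minus that on placebo. Here 1 member was called with the covariate (1.78% of all clusters), 0 without it (0.463%) and 0 after adjustment (0% of all clusters). It was Cacnb2 at -0.38 (SE 0.13, adjusted p = 0.538 from limma), with -0.48 among wide and -0.29 among narrow arrays. The call remained only without sham replicate 3, DOXO replicate 2 or 4, or FA-DOXO replicate 6, and leaving out any of the other 16 mice ended it, with differences from -0.41 to -0.29. Kcnd2 (0.44, SE 0.21) and Kcnj3 (0.42, SE 0.21) followed.

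Averaged over both diets, DOXO gave 0 called members with (2.83% of all clusters) or without (0.506%) the covariate. After adjustment 0 were called (0.227% of all clusters). By limma 3 members had an unadjusted p under 0.05, a share near the 8.54% of all clusters. These were Atp1b1 at 0.40 (SE 0.16, adjusted p = 0.463), Kcnj3 at -0.22 (SE 0.10) and Asph at -0.21 (SE 0.09). Atp1b1 was at 0.69 among wide and 0.82 among narrow arrays, and it was called without FA-sham replicate 4 (0.55) or DOXO replicate 5 (0.47). Kcnj3 was called without sham replicate 1 (-0.28). Of the 19 Trdn clusters 16 were above 0 and 2 were called, while the cluster used for Trdn was not. Averaged over both interventions, FA gave 0 called members with (1.31%) or without (2.63%) the covariate and 0 after adjustment (0% of all clusters), and Kcna5 had the smallest p at 0.21 (SE 0.10, adjusted p = 0.787 from limma), ahead of Camk2d (0.28, SE 0.15) and Calr (0.33, SE 0.21). Kcna5 was dim, with a mean signal of 6.45, just below the median of the arrays.

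A pair of ratios often used for the calcium cycle was taken within each array, which shows unequal change of 2 clusters and not their level. The log2 signal of Pln minus that of Atp2a2 was 1.33 ± 0.91 (SD) in the 4 sham mice, 1.41 ± 0.95 in the 6 DOXO mice and 1.28 ± 0.52 in the 6 FA-DOXO mice. It differed by 0.08 between DOXO and sham (two-sided exact permutation test, p = 0.886) and by -0.13 between FA-DOXO and DOXO (p = 0.781, exact). For Slc8a1 minus Atp2a2 the values were -3.23 ± 1.1, -2.50 ± 0.91 and -2.55 ± 1.07, and the differences 0.74 (p = 0.248, exact) and -0.05 (p = 0.929, exact). With the array SD taken out these became 0.18 (p = 0.705, exact) and -0.41 (p = 0.297, exact). Without sham replicate 4, and with the array SD left in, the difference of DOXO minus sham became 1.27 (p = 0.0476, exact), against 0.46 to 1.27 over all mice left out. All groups overlapped in both ratios, and both ratios moved with the array SD within groups, by -1.68 and -3.99 per unit.

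Of 129 other genes of calcium handling and ion transport, 104 were measured. Between DOXO and sham mice 4 of them were higher and 2 lower with the covariate, a share near the 4.14% of all clusters, and 0 were called without it (1.05% of all clusters). One passed the adjustment, Ppp1r3a, the glycogen-targeting subunit of protein phosphatase 1, which is also found at the SR. Its signal was 8.37, 10.10, 9.94 and 6.43 in sham and 6.39, 6.74, 6.45 and 8.57 in FA-sham mice. In DOXO mice it ran from 6.66 over 7.87 to 11.14 and in FA-DOXO mice from 6.55 over 7.59 to 10.26. The groups overlapped over most of their range, with the highest values in the DOXO mice with wide arrays. With the covariate Ppp1r3a rose in DOXO mice by 0.84 (SE 0.16, adjusted p = 0.0399 from limma) and over both diets by 0.59 (SE 0.11, adjusted p = 0.0273). The difference of DOXO minus sham was 1.53 among wide arrays, 0.87 among narrow arrays and -0.18 without the covariate, and its adjusted p ran from 0.0118 to 1.0 over the alternatives tried.

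The other 5 were Tmem38b, a counter-ion channel of the store (0.84, SE 0.20, adjusted p = 0.102 from limma), Rcan1, an inhibitor of calcineurin (0.96, SE 0.24, adjusted p = 0.117), Dpp6 (0.21), a partner of the transient outward channel, Kcnj8 (-0.58), a pore of the vascular ATP-sensitive channel, and Kcnk2 (-0.17), a leak channel. Rcan1 was at 8.12, 8.80, 8.52 and 7.14 in sham mice and reached 11.23 in DOXO replicate 5, where the highest other DOXO value was 9.49. Kcnj8 was at 8.39, 8.75, 8.75 and 6.94 in sham mice and between 6.85 and 7.73 in DOXO mice. The sham mice on wide arrays thus lay above every DOXO mouse in Kcnj8, and the narrow sham array lay within their range. Between FA-DOXO and DOXO mice 1 of the 104 was higher (1.11% of all clusters were called), Trpc1 (0.21, SE 0.07), a cation channel, and it was not called without the covariate (0.10). FA-sham minus sham gave 4 higher genes with the covariate (1.83% of all clusters were called), Ppp1r3a (0.59), Trpm7 (0.42), Dpp6 (0.28) and Kcnb2 (0.27). Without the covariate Ppp1r3a and Trpm7 turned to -1.67 and -0.88, while Dpp6 (0.64) and Kcnb2 (0.69) kept their sign and were called. In the interaction 1 gene was called (1.78% of all clusters), Dpp6 (-0.40, SE 0.10, adjusted p = 0.535 from limma). DOXO over both diets gave 4 higher (Ppp1r3a, Tmem38b, Rcan1 and Fxyd5 at 0.41) and 2 lower (Kcnk2 at -0.16 and Kcnmb1 at -0.21), where 2.83% of all clusters were called. FA over both interventions gave 2 higher (Trpm7 at 0.33 and Kcnb2 at 0.18), where 1.31% were called, and Trpm7 turned to -0.51 without the covariate.

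Some genes listed as markers of other cell types were called in the same comparison. Between DOXO and sham mice with the covariate, where 4.14% of all clusters were called, 5 of 11 neutrophil markers were higher (S100a8 by 1.35, SE 0.32, adjusted p = 0.0967 from limma), 2 of 11 macrophage, 2 of 13 skeletal muscle and 3 of 8 neuron and glia markers were higher, and 1 of 4 erythroid markers, Alas2, was lower (-0.70, adjusted p = 0.0618). Of 14 listed smooth muscle and pericyte markers, Des was higher (1.17) and Kcnj8, already given above, lower. Des encodes desmin, which heart muscle also makes, so it does not set another cell type apart here. Without the covariate, where 1.05% of all clusters were called, 5 neutrophil, 0 macrophage, 0 skeletal muscle, 0 smooth muscle and 1 neuron and glia marker were higher. Alas2 was lower. Of the 18 cardiomyocyte markers 1, Actn2, was higher (0.96), and their median difference was -0.03 with the covariate and -0.92 without it. The signal was averaged over the neutrophil markers in each mouse. The median of these averages over the mice was 5.84 in sham, 6.41 in FA-sham, 6.46 in DOXO and 6.44 in FA-DOXO mice. In their mean over all arrays, 8 of 11 neutrophil, 7 of 13 skeletal muscle, 4 of 8 neuron and glia and 1 of 11 macrophage markers lay below the array medians. In the same order of groups, the median of such averages was 6.14, 6.60, 6.55 and 6.58 over the skeletal muscle markers. Over the neuron and glia markers it was 6.10, 6.62, 6.54 and 6.53. Over the cardiomyocyte markers it was 11.42, 8.46, 9.82 and 9.41 in the same order, so the members with high slopes and these markers were low in the same groups. The part of cell makeup in the members' differences was not tested.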

How the data were processed

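Signals were deposited on the log2 scale, 1 value per transcript cluster and array. The submitters' processing notes name R 2.14.2 among the tools the authors used. How background was corrected, arrays were normalized and probes summarised is not given in the sources used. The arrays kept unequal spreads, so the array SD enters any comparison made without it. Gene symbols came from the platform annotation, in which 21640 clusters had 1 symbol, 1321 several, and 11799 were not listed.

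One mean per group and a slope on the centred array SD were fitted to all 34760 clusters with limma 3.58.1 in R 4.3.3, followed by moderated two-sided tests of 7 contrasts. No filter was applied. The fit was tested on simulated data with known changes. Ratios were tested with SciPy 1.17.1. The members and all gene lists were chosen with earlier results of these data known. Named were all members, in each comparison those called or else the 3 with the smallest p, and of other listed genes those called, at most 4 per list. Marker genes served as counts, with examples chosen after their values were seen. The replicate numbers of the labels were not used to pair the mice in the main fit. Alternatives were other covariates, normalizations, filters, moderation, array weights, a replicate block, wide or narrow arrays alone, and each mouse left out in turn. Promoters came from RefSeq (GRCm38.p6). Array data have no depth, so the number of arrays limits the precision.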

Additional observations from a re-analysis of the deposited data

Results flagged for a closer look

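In 9 genes with 4 groups each, 8 of 36 groups held a mouse far from the others by Dixon's criterion. It flags about 1 in 20 groups by chance where groups are independent. These groups are not, because the 9 genes share the same 20 arrays, and most flags came from the array of FA-sham replicate 4. All 8 were high values on wide arrays. FA-sham replicate 4, the only wide array of its group (array SD 1.14), stood above the other 3 FA-sham mice in Atp2a2 (11.51, next 8.02), Casq2 (10.26, next 7.15), Slc8a1 (7.57, next 6.94), Kcnj3 (7.56, next 6.89), Ppp1r3a (8.57, next 6.74) and Cacna1c (6.72, next 6.61). Cacna1c also stood apart in DOXO replicate 5 (10.49, next 7.19, array SD 1.499) and in FA-DOXO replicate 5 (8.01, next 7.07, array SD 1.34). The part of the array SD in these values was not tested beyond the slopes given above.

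The interaction of DOXO with diet, with the array SD as a covariate, had an unadjusted p under 0.01 for Cacnb2 (-0.38) and Dpp6 (-0.40), and neither passed the adjustment (adjusted p = 0.538 and 0.535 from limma). Over the alternatives, each mouse left out included, the call of Cacnb2 was lost in 29 and remained in 8, and that of Dpp6 was lost in 5 and remained in 32. Neither was called without the covariate.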

How the results depend on the processing

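Without the covariate the difference changed sign for 10 of 36 members in DOXO versus sham, 21 in FA-DOXO versus DOXO, 15 in FA-DOXO versus FA-sham, 16 in FA-sham versus sham, 11 in the interaction, 4 for DOXO over both diets and 21 for FA, and both members called in DOXO versus sham and the 1 called in the interaction lost their calls. Between DOXO and sham mice, 0 members were called without the covariate, with array width (wide or narrow) as a block, after quantile normalization or scaling to 1 SD without the covariate, with only the compared groups, with a replicate block (with or without the array SD), and among wide or narrow arrays alone. The count was 1 with clusters above the median signal or no moderation and 4 with the array SD and its square (Cacnb2 and Atp1b1 higher, Kcnj3 and Kcnd2 lower). With the covariate, Cacnb2 lost its call when the interquartile range replaced the SD (Slc8a1 and Kcnj11 higher), after quantile normalization (Kcnj3 and Kcnh2 lower), median centring (Asph and Kcnj3 lower) and with array weights (Kcnj3, Kcnd2 and Kcnh2 lower). For FA-DOXO versus DOXO it was 1 (Kcnj3) after quantile normalization with the covariate or with only the compared groups, and for FA-sham versus sham 1 (Cacnb2) without the covariate and with a replicate block without the array SD. The interaction lost its 1 call (0) without the covariate, with the interquartile range, the squared term, the width block, quantile normalization, median centring, scaling, the signal filter, a replicate block, and wide or narrow arrays alone, and with array weights Kcnd2 was called in place of Cacnb2. DOXO over both diets gave 1 with the interquartile range (Slc8a1), the squared term or a replicate block (Atp1b1) and 2 with array weights, and FA over both interventions 1 (Hcn2) after scaling. The mean signal of Hcn2 (6.38) lay below the median of the arrays. Adjusted calls of members were 0 with each mouse left out. The causes were not tested.

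Without the covariate the median member differences were -0.54 (DOXO versus sham), -0.16 (FA-DOXO versus DOXO), -0.95 (FA-sham versus sham), 0.72 (interaction) and -0.55 (FA). With array width as a block they were -0.16 for FA-DOXO versus DOXO, -0.33 for FA-sham versus sham and -0.23 for FA. Quantile normalization without the covariate gave -0.59, 0.45 and -0.28 for FA-sham versus sham, the interaction and FA. Scaling gave -0.40 for DOXO versus sham and -0.79, 0.68 and -0.41 for the same 3. A replicate block without the array SD gave -0.82, -0.16, -0.95, 0.72, -0.34 (DOXO over both diets) and -0.55. Wide arrays alone gave -0.19 (FA-DOXO versus DOXO), 0.28 (FA-DOXO versus FA-sham), -0.62 (FA-sham versus sham) and -0.47 (FA). The Pln to Atp2a2 ratio of DOXO versus sham was -0.15 with the array SD taken out.

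Other genes turned sign. Ppp1r3a in DOXO versus sham was -0.18 without the covariate, -0.13 scaled and -0.65 with a replicate block without the array SD, where it was -0.10 over both diets. In FA-sham versus sham it was -1.67 without the covariate and with that block, -0.22 with the width block, -1.22 quantile normalized, -1.42 scaled and -0.90 among wide arrays. Trpm7 in the same comparison was -0.88, -0.059, -0.65, -0.89 and -0.42, and for FA -0.51, -0.10, -0.34, -0.49 and -0.47, without the covariate, with the width block, quantile normalized, scaled and among wide arrays. With the replicate block without the array SD, Rcan1 was -0.081 (DOXO versus sham) and -0.023 (over both diets) and Kcnk2 0.094. Kcnj8 was 0.17 among narrow arrays.

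With each mouse left out, members called ran from 0 to 4 (DOXO versus sham, 4 without sham replicate 1 or 4), 0 to 1 (FA-DOXO versus DOXO), 0 to 2 (FA-DOXO versus FA-sham), 0 to 1 (FA-sham versus sham), 0 to 2 (interaction), 0 to 4 (DOXO over both diets, 4 without sham replicate 1) and 0 (FA). Medians ran from -0.13 to 0.01, 0.08 to 0.13, -0.05 to 0.01, -0.05 to 0.07, -0.04 to 0.12, -0.09 to -0.01 and 0.01 to 0.06 in that order. The Pln to Atp2a2 ratio ran from -0.23 to 0.35 (DOXO versus sham) and -0.38 to 0.17 (FA-DOXO versus DOXO), and the Slc8a1 to Atp2a2 ratio from 0.46 to 1.27 and -0.30 to 0.24.

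Of 26 pairs of mice with the same replicate number, 12 deviated together (r over 0.1), or 14 with the array SD taken out. The r ran from -0.856 to 0.839, and from -0.450 to 0.625 with the array SD taken out. Mice with different numbers were not compared in this way, so these values cannot decide whether the numbers mark pairs. The main fit did not take them as pairs, and the replicate block was an alternative.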
